A study of Mus musculus with 18 samples.

Results

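Open chromatin around Myc and Mycn, the genes of a pair of related growth-promoting transcription factors, was followed through 18 ATAC-seq libraries of mouse embryonic stem (ES) cells. ATAC-seq cuts open DNA with a transposase, and sites cut more often than their surroundings are called as peaks. Every peak that overlapped mm9 chr15:61720000-61920000 (the Myc window) or mm9 chr12:12890000-13000000 (the Mycn window) was taken, and overlapping peaks of different libraries were merged. This gave 81 regions, 54 in the Myc window and 27 in the Mycn window, of 377189 regions in the whole series. The windows were fixed by position and every peak in them was taken whatever its score, but a region exists only where some library had a peak. The 37 regions described one by one were chosen partly by how many libraries had a peak and by losses and gains.

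The study set TOP2, the topoisomerase that passes one DNA duplex through another, beside the BAF chromatin remodelling complex. Wild-type ES cells in serum and LIF were given ICRF-193, which blocks TOP2 in its catalytic cycle, at 1 µM for 1 h (3 libraries), against DMSO labelled 1 h (3 libraries), or for 24 h (2 libraries), against DMSO for 24 h (2 libraries). Brg1 fl/fl; Actin-CreER cells received 0.8 µM tamoxifen (2 libraries) or ethanol (2 libraries) for 24 h and were then grown for 48 h in medium with neither. Baf53a fl/-; Actin-CreER cells were handled in the same way (2 libraries with tamoxifen and 2 with ethanol). Brg1 is the ATPase of BAF, and Baf53a is its actin-related subunit. Tamoxifen activates the Cre fusion protein, so that each knockout control shares the floxed alleles and the Cre transgene, and the Baf53a ethanol cells already carry 1 null allele. No library without floxed alleles received tamoxifen. The 1 h groups rest on the titles, since the treatment protocol names only 24 h and the design text gives 1 h for ICRF-193 alone. Replicates were passages of a line, and p-values therefore cover variation from passage to passage and library to library. The lists name no genes, and neither ES cell identity nor the deletions were checked here against marker genes.

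Myc and Mycn encode basic helix-loop-helix leucine zipper proteins that pair with Max and bind E box sequences, mainly at genes for growth, ribosome assembly and metabolism. In mouse ES cells the pair can stand in for each other in keeping up self-renewal, and LIF signalling through STAT3 is known to sustain Myc. Both genes are controlled by elements far outside the transcribed unit as well as by their promoters. In the RefSeq gene order of GRCm38.p6, which was used for names only, the neighbours of Myc were a pseudogene on its upstream side and the long noncoding RNA gene Pvt1 on its downstream side. The nearest protein-coding neighbours of Mycn were Ddx1, a DEAD box helicase gene, on its upstream side and Cyria on its downstream side.

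Near the start of each gene a region had a peak in all 18 libraries. The promoter set used held no entry for Myc, so only the promoter of Mycn is printed. It comprises the 250 bases before the RefSeq start on the minus strand (GRCm38.p6, chr12:12941837-12942086), and capitals mark matches to the letters TTTGGCGC and TTTCGCGC, forms of the site bound by E2F cell-cycle factors.
Mycn promoter: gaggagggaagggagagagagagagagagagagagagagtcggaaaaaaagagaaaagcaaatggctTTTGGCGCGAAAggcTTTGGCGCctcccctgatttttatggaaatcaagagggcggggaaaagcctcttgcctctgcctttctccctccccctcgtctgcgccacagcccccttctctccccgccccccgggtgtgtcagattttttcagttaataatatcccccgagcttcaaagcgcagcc
The form TTTGGCGC began 183 and 168 bases before the start, and TTTCGCGC lay on the other strand at 179 bases, overlapping the first. Both strands were searched in 32851 RefSeq promoters of the same length: 0.417% held TTTGGCGC, 0.00609% held it 2 or more times, and 0.256% held TTTCGCGC. The GC box GGGCGG stood 133 bases before the start and, on the other strand, at 63 bases (present in 32.7% of promoters). The window held no E box CACGTG (6.02% of promoters), no TATAAA (12.4%), no CCAAT (33.9%) and no STAT form TTCNNNGAA (7.02%). These matches are letters in a reference, not bound sites, and the sequence could not be laid over the mm9 peaks because the builds differ.

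Both loci were dense in peaks and rich in regions shared by all libraries. On average a library had 18.1 peaks in the Myc window, against a median of 5.17 over the 12694 tiles of 200 kb that held any peak, which placed the window above 92.7% of them. The Mycn window averaged 10.3 peaks, against a median of 2.83 over 22807 tiles of 110 kb, above 92.1% of them. A peak in all 18 libraries was found at 8 of the 81 regions (9.88%), compared with 4.79% of all regions, and a peak in 9 or more libraries at 24 of 81 (29.6%), compared with 17.3%. Single-library regions made up 33 of the 81 (40.7%) and 54.9% of all regions. Within the windows, the 24 regions shared by 9 or more libraries had a median width of 545 bp, and the 33 single-library regions one of 129 bp. These are widths of merged regions, so merging peaks of more libraries can itself widen a region.

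**Figure D1:**
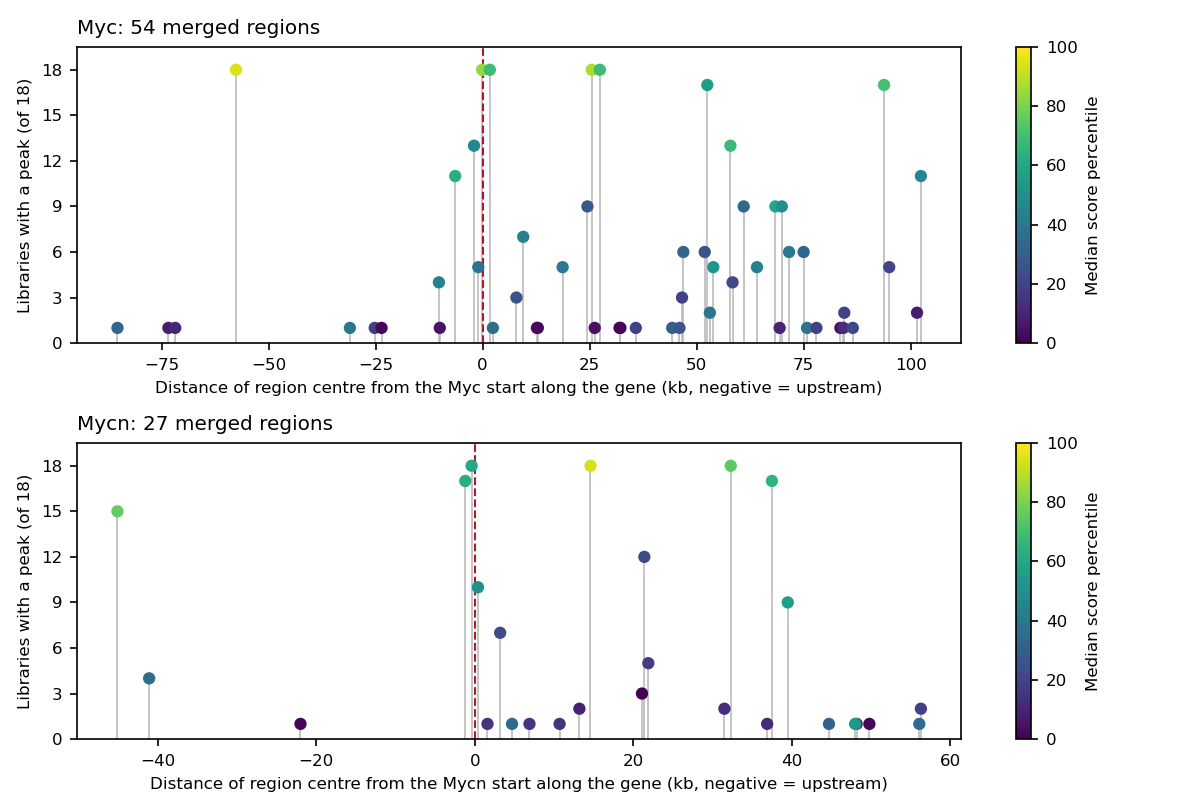
Libraries with a peak at each region of the Myc window (54 regions) and the Mycn window (27 regions), by distance from the gene start in kb along the direction of transcription. Each point on its stem is a region, coloured by its median score percentile, and the dashed line is the gene start. Points reach 18 libraries at 5 regions around Myc and 3 around Mycn, while 33 regions were seen in 1 library.

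The score that the authors gave each peak has no stated unit and was used only as a percentile within its own list, where 100 is the strongest peak. Lists ran from 46431 peaks in Brg1 tamoxifen replicate 2 to 129880 in DMSO 1 h replicate 3. Within the windows, shared regions were also the stronger ones: their median percentile was 62.8, against 15.0 for single-library regions. These medians were not taken over all regions, so they show nothing particular to the loci. The 44 regions not described one by one had peaks in at most 6 libraries, and their medians lay between 0.172 and 53.3.

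At the start of Myc, a 1026 bp region (mm9 chr15:61816424-61817449) had a peak in every library. Its percentile was 76.5, 86.5 and 78.8 after ICRF-193 for 1 h and 80.2, 70.6 and 85.5 in DMSO 1 h. It was 74.6 and 68.6 after ICRF-193 for 24 h, and 85.0 and 87.7 in DMSO 24 h. After tamoxifen it was 92.4 and 78.3 in Brg1 cells, against 80.7 and 82.4 with ethanol, and 96.3 and 85.2 in Baf53a cells, against 87.4 and 95.3 with ethanol. The start of Myc thus stayed in the upper part of every list, and only the 24 h ICRF-193 pair lay wholly below its control.

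Inside Myc, a 276 bp region 2 kb past the start was also present in all 18 libraries, with percentiles of 51.0 to 88.0. A second region at 2 kb was seen in 1 library, after ICRF-193 for 24 h, at a percentile of 36.6. Just upstream, a region 1 kb before the start had peaks in 5 libraries, among them both Baf53a ethanol libraries (59.1 and 37.7) and neither Baf53a tamoxifen library. The region 2 kb before the start had peaks in 13 libraries. It was present in both Brg1 tamoxifen libraries (18.01 and 29.1), and in neither Brg1 ethanol library.

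The region taken as the start of Mycn had a lower median percentile than that of Myc. Gene positions are approximate, and regions centred 0.4 kb before and 0.4 kb after the start of Mycn were equally near it. The one before it, of 634 bp (mm9 chr12:12949129-12949762), had a peak in all 18 libraries and is called the start of Mycn below. Its median percentile was 60.2, compared with 83.7 at the start of Myc. Its percentile was 58.6, 61.8 and 62.5 after ICRF-193 for 1 h, against 33.8, 32.5 and 62.8 in DMSO 1 h, and 68.7 and 64.4 after 24 h, against 23.8 and 62.2 in DMSO 24 h. After tamoxifen the percentile was 55.0 and 15.4 in Brg1 cells, against 83.4 and 67.5 with ethanol, and 56.3 and 50.7 in Baf53a cells, against 34.9 and 74.6 with ethanol. The 24 h ICRF-193 pair was wholly above its control and the Brg1 tamoxifen pair wholly below, while the groups overlapped at 1 h and in Baf53a cells.

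Beside it, a 576 bp region 1 kb before the start was missing only from Brg1 tamoxifen replicate 2. The other region near the start, of 511 bp and centred 0.4 kb past it, had peaks in 10 libraries at a median percentile of 50.0. Within the gene, the region 3 kb past the start had peaks in 7 libraries. Both Baf53a ethanol libraries had it (26.7 and 22.9) and neither Baf53a tamoxifen library did, although in this case the ethanol peaks covered less than 25% of the merged region in at least 1 library. The other 3 regions over Mycn, 2, 5 and 7 kb past its start, were seen in 1 library each, at percentiles of 15.0, 34.1 and 15.4.

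Of the 8 members present in all libraries, 1 far upstream of Myc had the largest differences in rank among regions common to all. This held in the Brg1, Baf53a and 24 h ICRF-193 contrasts, though not at 1 h. This 782 bp region, 58 kb before the gene start (mm9 chr15:61759004-61759785), had a peak in all 18 libraries and, with a median percentile of 94.3, was the strongest of the 54 regions by that median. No other Myc region further upstream than 10 kb was shared by 9 or more libraries.

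After tamoxifen the percentile of the upstream region was 45.2 and 9.55 in Brg1 cells, against 96.7 and 94.5 with ethanol. In Baf53a cells the percentile was 69.5 and 52.0 after tamoxifen, against 95.4 and 94.4 with ethanol. The percentile was 97.3, 76.1 and 95.3 after ICRF-193 for 1 h, against 94.2, 85.4 and 97.0 in DMSO 1 h. After 24 h of ICRF-193 it was 83.6 and 85.3, against 95.0 and 98.0 in DMSO 24 h. The peak was thus kept everywhere, while both tamoxifen groups and the 24 h ICRF-193 group lay wholly below their controls and the 1 h groups overlapped.

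**Figure D2:**
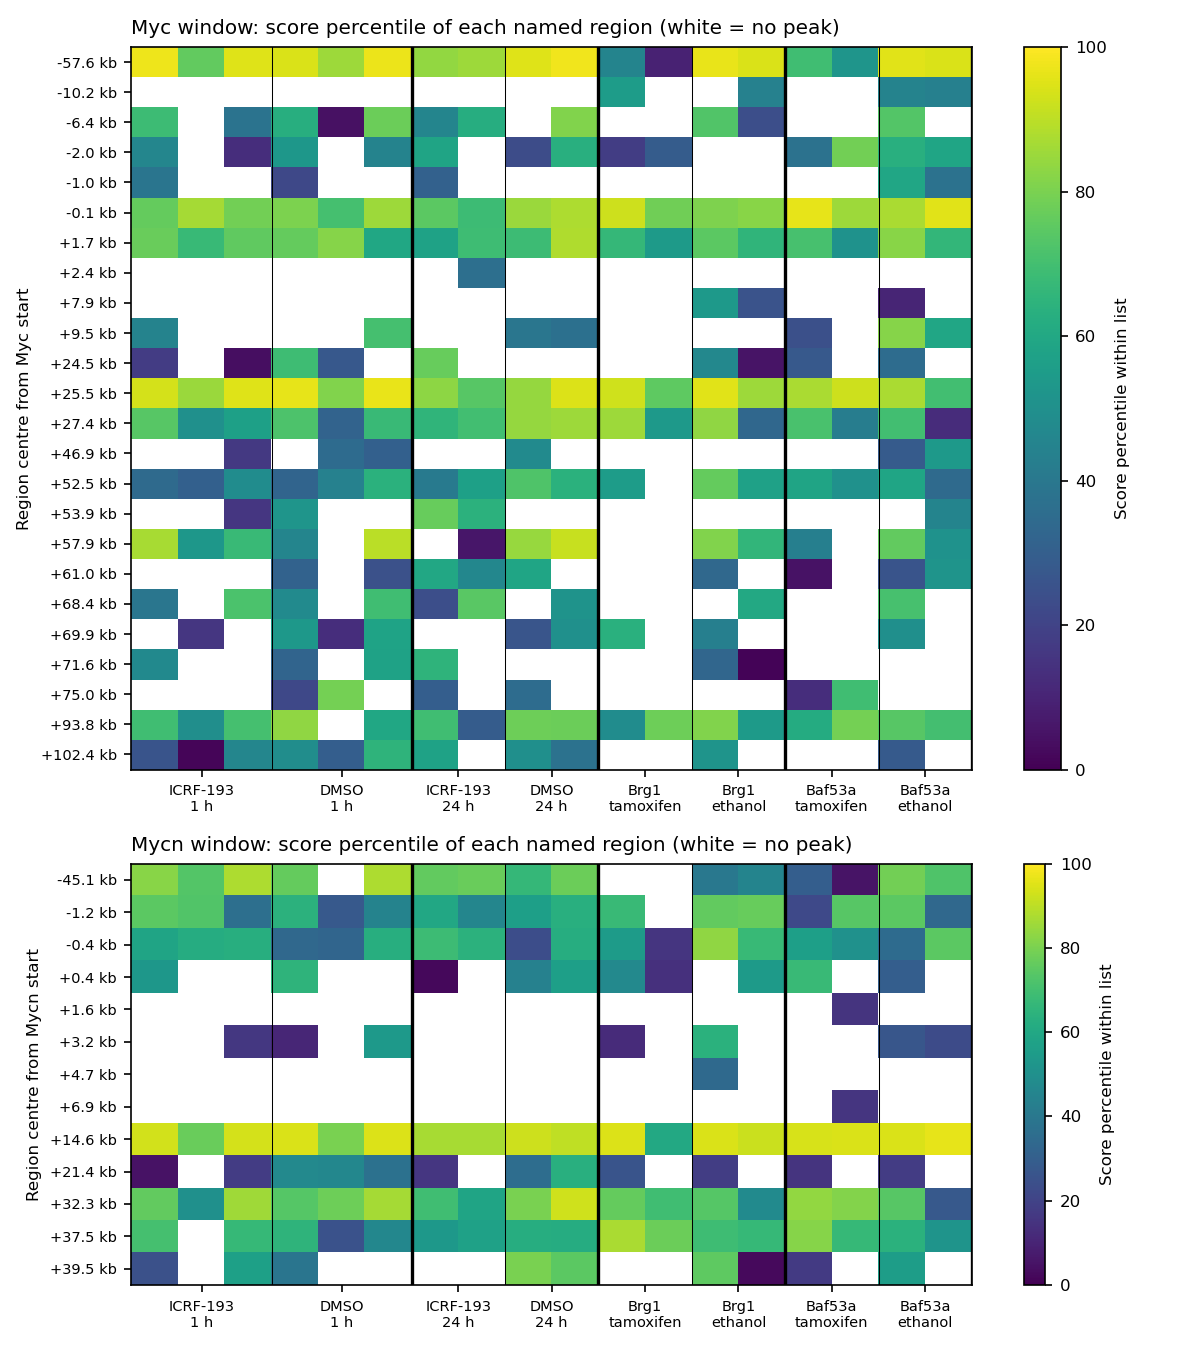
Score percentile within its own list (colour, 0 to 100) of each named region (rows, by distance from the gene start in kb, Myc above and Mycn below) in each of the 18 libraries (columns, each perturbed group left of its control). Blank cells had no peak. The row 58 kb upstream of Myc is bright in every control and fades to 45.2 and 9.55 in the Brg1 tamoxifen columns.

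Percentiles from lists of unequal length are not on one scale, so the region was also ranked among the same 18061 regions that had a peak in all 18 libraries. The rank, in percent, was fitted over all 18061 regions with limma, a test chosen after the percentiles had been seen. In Brg1 cells the upstream Myc region ranked at 2.44 and 1.14 after tamoxifen, and at 82.4 and 76.1 with ethanol, means of 1.79 ± 0.92 and 79.3 ± 4.49 (SD, n = 2 each). It fell by 77.5 points (SE 14.2, two-sided limma, adjusted p = 0.00393 over 18061 regions). It was 1 of 437 regions called lower (2.42% of those tested), and 18 of the 18061 regions, itself included, fell as far or further. None of the other 7 members ranked there was called in Brg1 cells, where 0.144% of regions were called higher. Ranked instead among the 27080 regions present throughout the Brg1 contrast, the upstream Myc region differed by -80.7 points, and 6 regions, itself included, fell as far or further. The number called lower among the 18061 regions depended on single libraries. It was 148 without ethanol replicate 1, 186 without ethanol replicate 2 and 167 without tamoxifen replicate 2.

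In Baf53a cells the same region ranked at 12.6 and 5.81 after tamoxifen, and at 74.9 and 75.8 with ethanol. The difference was -66.1 points (SE 14.2), the lowest of all 18061 regions, yet it missed the threshold (two-sided limma, adjusted p = 0.155). Ranked instead among the 39121 regions present throughout the Baf53a contrast, it was not the lowest. There the difference was -57.7 points, and 30 regions, itself included, fell as far or further. With Baf53a, limma called 0.0166% of the regions lower and none higher, and no member. The Brg1 and Baf53a differences were themselves -11.4 points apart (SE 20.1, limma adjusted p = 0.971), which leaves room for a sizeable gap in either direction.

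With ICRF-193 for 24 h the region ranked at 35.7 and 50.4, and at 75.6 and 86.8 in DMSO 24 h. The difference of -38.1 points missed the threshold (SE 14.2, two-sided limma, adjusted p = 0.425), in a contrast where 0.0443% of regions were called lower and 0.00554% higher. At 1 h the ranks were 86.1, 45.3 and 77.4 after ICRF-193, and 66.3, 58.8 and 80.4 in DMSO 1 h, a difference of 1.13 points (SE 11.6, limma adjusted p = 1), and limma called no region at 1 h. The 24 h and 1 h differences were -39.3 points apart (SE 18.4, limma adjusted p = 0.715). Ranked among the 40893 regions present throughout the 24 h contrast, the region differed by -23.4 points, and 9.11% of regions fell as far or further. The region 32 kb downstream of Mycn differed more there, by -31.7 points. Among the 28526 regions of the 1 h contrast the upstream Myc region differed by 0.39 points.

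Ordered by mean rank, the region stood lowest in the tamoxifen groups, at 1.79 ± 0.92 in Brg1 cells and 9.22 ± 4.83 in Baf53a cells, followed by ICRF-193 for 24 h (43.1 ± 10.4). ICRF-193 for 1 h (69.6 ± 21.5) and DMSO 1 h (68.5 ± 11.0) came next and did not differ beyond their spread. Baf53a ethanol (75.3 ± 0.62), Brg1 ethanol (79.3 ± 4.49) and DMSO 24 h (81.2 ± 7.98) stood highest, close to one another (SD, n = 3 at 1 h and 2 elsewhere).

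List length also differed between these libraries, and its part in the result was not tested. Brg1 tamoxifen replicate 2 had the shortest list (46431 peaks), and the short 1 h lists, 50611 peaks for ICRF-193 and 58532 for DMSO, also ranked the region lowest in their groups. Without Brg1 tamoxifen replicate 2 the Brg1 difference was -76.8 points. The Brg1 tamoxifen lists held 84763 and 46431 peaks, against 107473 and 85007 with ethanol. The Baf53a tamoxifen lists held 88729 and 86960 peaks, against 110503 and 83918 with ethanol. Without Brg1 ethanol replicate 1 the Brg1 drop was -74.3 points and missed the threshold (limma adjusted p = 0.0616).

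**Figure D3:**
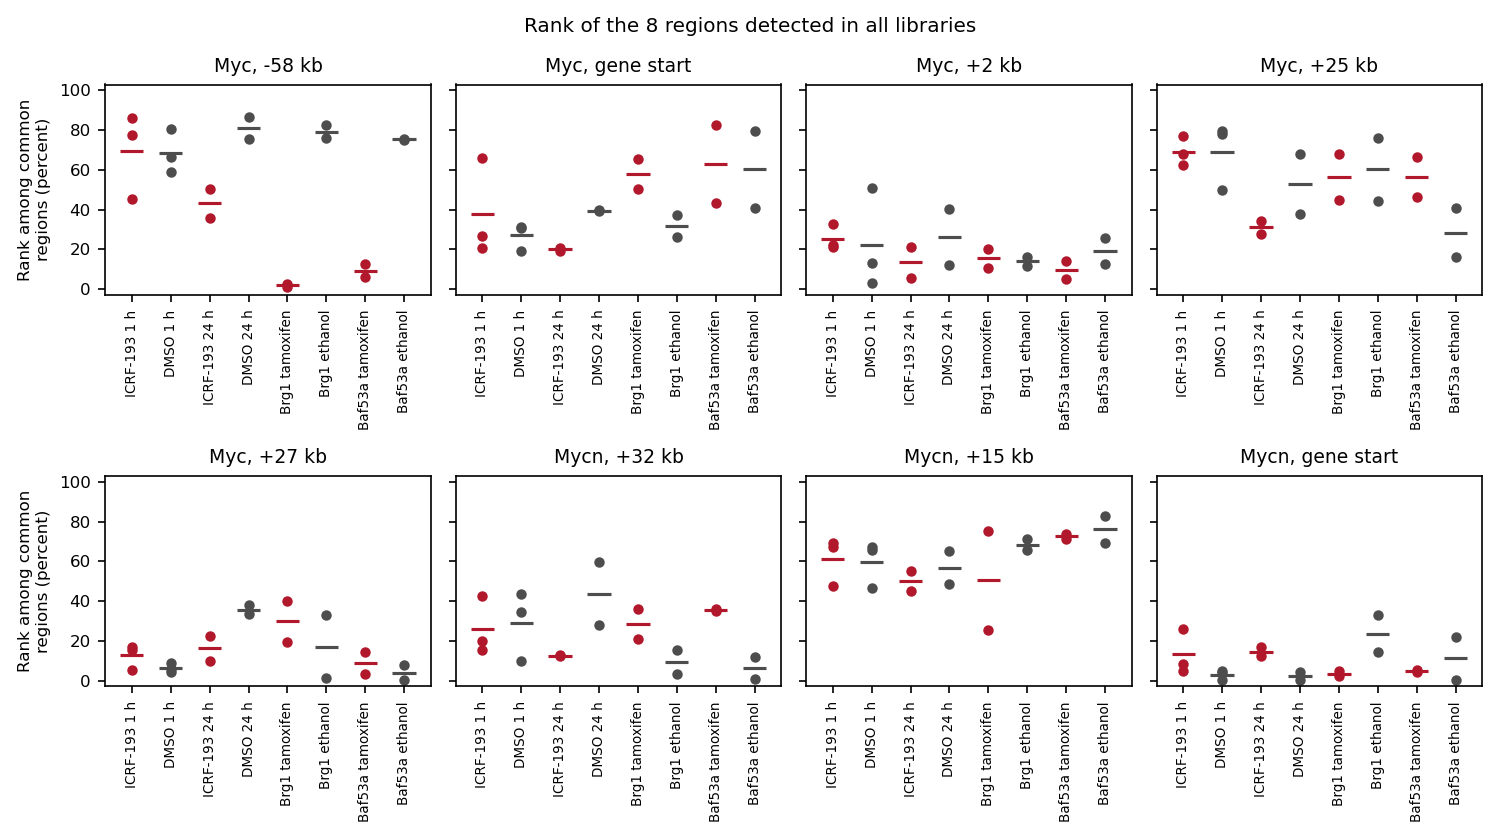
Rank in percent among the 18061 regions shared by all libraries for the 8 members, 1 a panel, each point a library and each horizontal line a group mean, with perturbed groups left of their controls. Upstream of Myc, the 4 tamoxifen libraries sit between 1.14 and 12.6, below all 14 other libraries.

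The 8 members present in all libraries can also be counted by whether the ranks of a contrast overlap. After 24 h of ICRF-193, 5 of the 8 ranked wholly below DMSO, where 18.9% of the 18061 regions did, and 1 wholly above, where 21.2% did. The 5 were the regions 58 kb upstream of Myc, at its start and 25 and 27 kb downstream, and the one 32 kb downstream of Mycn, and the 1 was the start of Mycn. At 1 h none ranked wholly below (4.83% of regions) and 1, again the start of Mycn, wholly above (5.08%). In Brg1 cells 2 ranked wholly below ethanol after tamoxifen, the upstream Myc region and the start of Mycn (20.0% of regions), and 2 wholly above, the start of Myc and the region 32 kb downstream of Mycn (25.5%). In Baf53a cells the upstream Myc region was the 1 wholly below (17.5%), and 2 were wholly above, 25 kb downstream of Myc and 32 kb downstream of Mycn (19.6%).

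Downstream of Myc no region present in all libraries had a called difference. The region 25 kb past the start (546 bp, mm9 chr15:61842227-61842772) was present in all 18 libraries at percentiles of 69.9 to 96.8. Its rank after tamoxifen was 67.9 and 44.9 in Brg1 cells, against 76.3 and 44.6 with ethanol, and 46.6 and 66.4 in Baf53a cells, against 41.0 and 15.9 with ethanol. The Brg1 groups overlapped, and the Baf53a tamoxifen pair was higher by 28.0 points without passing the test (SE 16.1, limma adjusted p = 0.789). The region 27 kb past the start, the fifth shared by all libraries at Myc, had a median percentile of 68.8 and no called difference.

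Further out, the region 53 kb downstream lacked a peak only in Brg1 tamoxifen replicate 2, and the 1259 bp region 94 kb downstream, the widest at Myc, only in DMSO 1 h replicate 2. The region 58 kb downstream was present in 13 libraries and was lost in Brg1 cells, where both ethanol libraries had it (81.0 and 65.9) and no tamoxifen library did. It was present in 1 of 2 libraries both after ICRF-193 for 24 h (5.87, against 84.4 and 91.5 in DMSO 24 h) and after tamoxifen in Baf53a cells (43.0, against 75.8 and 51.1 with ethanol). The Brg1 loss at this region also held with equal numbers of peaks per list and in the upper 50% of each list by score.

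Shared regions that no tamoxifen library held were 6 kb upstream of Myc (11 libraries), 68 kb downstream (9 libraries) and 102 kb downstream (11 libraries). These were 3 of the 24 members with a peak in 9 or more libraries, a pattern looked for after the values were seen. Over the whole series 5.22% of such regions were absent from all 4 tamoxifen libraries and 0.781% from all 4 ethanol libraries. Among ethanol libraries, both of Brg1 and 1 of 2 of Baf53a held the region 6 kb upstream. Those 68 and 102 kb downstream were held by only 1 of 2 ethanol libraries of each line. The region 61 kb downstream, in 9 libraries, was present in Baf53a tamoxifen replicate 1 at a percentile of 4.82 and in no other tamoxifen library.

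At Mycn the strongest region was not the gene start but one 15 kb downstream. This 964 bp region (mm9 chr12:12933934-12934897) had a median percentile of 93.4 and ranged from 60.4, in Brg1 tamoxifen replicate 2, to 96.2. Its rank after tamoxifen was 75.4 and 25.5 in Brg1 cells, against 71.0 and 65.5 with ethanol, and 71.3 and 74.0 in Baf53a cells, against 69.4 and 83.0 with ethanol. All 4 contrasts overlapped there, with limma adjusted p between 0.656 and 1.

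Further downstream of Mycn, at 32 and 38 kb, the tamoxifen libraries ranked above ethanol in both lines. The difference at 32 kb was not called, and that at 38 kb was not tested. Among the 18061 shared regions, the one 32 kb downstream ranked at 21.0 and 36.2 after tamoxifen in Brg1 cells, against 15.6 and 3.29 with ethanol, and at 36.2 and 35.0 in Baf53a cells, against 12.0 and 0.786 with ethanol. The differences were 19.2 points in Brg1 cells (SE 13.0, limma adjusted p = 0.557) and 29.2 points in Baf53a cells (SE 13.0, limma adjusted p = 0.657). After 24 h of ICRF-193 it ranked at 12.7 and 12.4, against 27.7 and 59.8 in DMSO 24 h, a difference of -31.2 points (SE 13.0, limma adjusted p = 0.488). The sign at the region 32 kb downstream was thus opposite for tamoxifen and for ICRF-193 at 24 h, with no call in either. A 570 bp region 21 kb downstream of Mycn, in 12 libraries, was weaker, with a median percentile of 22.1.

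The region 38 kb downstream was missing from 1 library, ICRF-193 1 h replicate 2, and was ranked within each contrast, among the regions present in all of its libraries. Among 27080 such regions of the Brg1 contrast it ranked at 62.3 and 62.9 after tamoxifen, against 25.5 and 30.0 with ethanol, a difference of 34.9 points, as high as or above 98.2% of the regions. Among 39121 of the Baf53a contrast it ranked at 60.6 and 37.1 after tamoxifen, against 23.0 and 21.1 with ethanol, a difference of 26.8 points. Neither tamoxifen pair overlapped its ethanol control, a pattern not counted over these regions. Among the 18061 regions shared by all libraries, 25.5% ranked wholly above ethanol in Brg1 cells and 19.6% in Baf53a cells, so such separation was common.

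The far upstream region of Mycn, 45 kb before the start (1069 bp, mm9 chr12:12993530-12994598), was low in both tamoxifen groups. It had no peak in either Brg1 tamoxifen library and percentiles of 40.0 and 45.2 with ethanol. In Baf53a cells the percentile was 30.0 and 5.36 after tamoxifen, against 78.8 and 72.6 with ethanol. The percentile in wild-type libraries was 82.2, 73.3 and 87.6 after ICRF-193 for 1 h, 76.3 and 87.9 in the DMSO 1 h libraries that had it, 76.1 and 77.3 after ICRF-193 for 24 h, and 66.6 and 77.6 in DMSO 24 h. The Brg1 ethanol controls were themselves below every wild-type library that held a peak.

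Ranked among the 39121 regions present throughout the Baf53a contrast, the far upstream Mycn region stood at 6.16 and 0.713 after tamoxifen, against 46.5 and 46.6 with ethanol. The difference was -43.1 points, and 289 regions (0.739%) fell as far or further. No test was made of it, because the region lacks a peak in 3 libraries. With lists cut to equal numbers of peaks the Brg1 loss was no longer seen, since the ethanol peaks did not stay in both lists.

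Detection differed in at least 1 contrast at 16 of the 81 regions by the strictest pattern the design allows, a peak in every library of one group and in none of the other. The matching share of all regions over the contrasts together was not counted, and shares by contrast are given below. With 2 libraries a group such a pattern cannot pass a test, so it is a description. Of the regions that both Brg1 ethanol libraries held, tamoxifen libraries lacked 5 of 12 at Myc and 2 of 7 at Mycn, where 23.9% of all such regions were lost. In Baf53a cells 3 of 14 Myc regions and 1 of 7 Mycn regions were lost, where 11.2% of all were. After 24 h of ICRF-193, 2 of 12 Myc regions and 1 of 9 Mycn regions were lost, where 15.5% of all were. After 1 h, 0 of 9 Myc regions and 0 of 6 Mycn regions were lost, where 2.28% of all were. With so few regions a locus, these shares are counts beside a background and show nothing particular to Myc or Mycn.

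The regions lost in Brg1 cells lay 6 kb upstream and 8, 24, 58 and 72 kb downstream of Myc, and 40 kb downstream and 45 kb upstream of Mycn. Those lost in Baf53a cells lay 10 and 1 kb upstream and 47 kb downstream of Myc, and 3 kb past the start of Mycn. Those lost after 24 h of ICRF-193 lay 9 and 70 kb downstream of Myc and 40 kb downstream of Mycn. No member was lost in both tamoxifen contrasts. The region 40 kb downstream of Mycn, in 9 libraries, was lost with both ICRF-193 for 24 h (DMSO 24 h percentiles of 79.7 and 74.9) and tamoxifen in Brg1 cells (ethanol percentiles of 75.3 and 2.56).

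Gains were fewer. In Brg1 cells the region 2 kb upstream of Myc was gained, 1 of 7 Myc regions shared by the tamoxifen libraries, where 4.97% of all such regions were gained. In Baf53a cells 1 of 9 was gained, 75 kb downstream of Myc (percentiles of 13.0 and 69.5 after tamoxifen), where 5.49% of all were. With 24 h of ICRF-193 1 of 11 was gained, 54 kb downstream of Myc (76.7 and 64.1), where 5.46% of all were. Each of these gained regions also had peaks in control libraries of other contrasts. The one at 75 kb was held by 2 DMSO 1 h libraries (21.7 and 79.2) and 1 DMSO 24 h library (35.2). The one at 54 kb was held by 1 DMSO 1 h library (52.0) and 1 Baf53a ethanol library (45.2). No Mycn region was gained, and none was gained in either window at 1 h, where 0.375% of all regions were. With lists of equal length, losses in Brg1 cells numbered 1 of 7 Myc regions and 0 of 5 Mycn regions (18.9% of all regions), and gains 0 of 6 and 0 of 5 (9.52%). In Baf53a cells losses then numbered 4 of 14 and 1 of 7 (9.52%), and gains 1 of 9 and 0 of 6 (6.74%). With 24 h of ICRF-193 losses then numbered 1 of 10 and 3 of 9 (11.6%), and gains 1 of 11 and 0 of 6 (8.1%). At 1 h there were no losses among 4 and 2 regions (1.52%) and no gains among 7 and 4 (1.03%).

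Of the 17 calls, 9 held with equal numbers of peaks per list and 3 in the upper 50% of each list by score. Those 3 were the gain 54 kb downstream of Myc, the Brg1 loss 58 kb downstream of Myc and the ICRF-193 loss 40 kb downstream of Mycn.

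The number of peaks in each window, scaled to 100000 peaks of the list, did not pass the test in any contrast. In the Myc window it was 16.5 and 19.4 after tamoxifen in Brg1 cells, against 20.5 and 20.0 with ethanol, and 20.3 and 11.5 in Baf53a cells, against 21.7 and 23.8 with ethanol. It was 24.4 and 20.8 after ICRF-193 for 24 h, against 19.4 and 16.5 in DMSO 24 h, and 20.8, 21.7 and 22.0 at 1 h, against 20.6, 22.2 and 16.2 in DMSO 1 h. The tamoxifen pairs were wholly below ethanol in both lines, and the ICRF-193 pair at 24 h was wholly above DMSO. How many other tiles were separated in this way was not counted. Of 8557 tiles of 200 kb, 36.4% had a more negative log2 difference than the Myc window in Brg1 cells. In Baf53a cells 6.92% did, and after 24 h of ICRF-193 81.7% did. The Baf53a value rested mostly on replicate 2, which had 10 peaks in the window, and the log2 difference without it was -0.16 by limma.

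Fitted with limma over 8557 tiles of 200 kb, the Myc window differed by -0.55 on the log2 scale in Baf53a cells (SE 0.24, two-sided limma, adjusted p = 0.995). The difference was -0.15 in Brg1 cells (SE 0.24, limma adjusted p = 0.806), where 1.47% of tiles were called lower and 0.222% higher. Those 126 lower tiles became 22 without ethanol replicate 1, 31 without ethanol replicate 2, 63 without tamoxifen replicate 2 and 480 without tamoxifen replicate 1. It was 0.33 after ICRF-193 for 24 h (SE 0.24, limma adjusted p = 0.938), where 0.0117% of tiles were called lower, and 0.15 at 1 h (SE 0.20, limma adjusted p = 0.999). Neither the difference between 24 h and 1 h (0.19, adjusted p = 1) nor that between Brg1 and Baf53a (0.40, limma adjusted p = 0.776) was called. In that last comparison 0.0467% of tiles were called lower. At 1 h and in Baf53a cells limma called 0 of 8557 tiles, with 321 and 381 at an unadjusted p under 0.05.

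The Mycn window, 110 kb wide against 200 kb for Myc, held fewer peaks, and its groups overlapped in most contrasts. Scaled to 100000 peaks it held 10.6 and 12.9 after tamoxifen in Brg1 cells, against 10.2 and 10.6 with ethanol, and 16.9 and 11.5 in Baf53a cells, against 10.9 and 13.1 with ethanol. It held 11.2 and 9.10 after ICRF-193 for 24 h, against 11.2 and 9.45 in DMSO 24 h, and 10.9, 13.8 and 10.5 at 1 h, against 10.7, 17.1 and 8.47 in DMSO 1 h. Over 11025 tiles of 110 kb the log2 differences lay between -0.01 and 0.22, with SE of 0.25 to 0.30 and limma adjusted p of 0.812 to 0.998. In Brg1 cells 0.689% of these tiles were called lower and 0.0635% higher, and 0.00907% were called lower for Brg1 minus Baf53a, where the Mycn window differed by -0.03 (SE 0.43, limma adjusted p = 0.994). The 76 tiles called lower in Brg1 cells became 6 without ethanol replicate 1, 2 without ethanol replicate 2 and 471 without tamoxifen replicate 1.

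**Figure D4:**
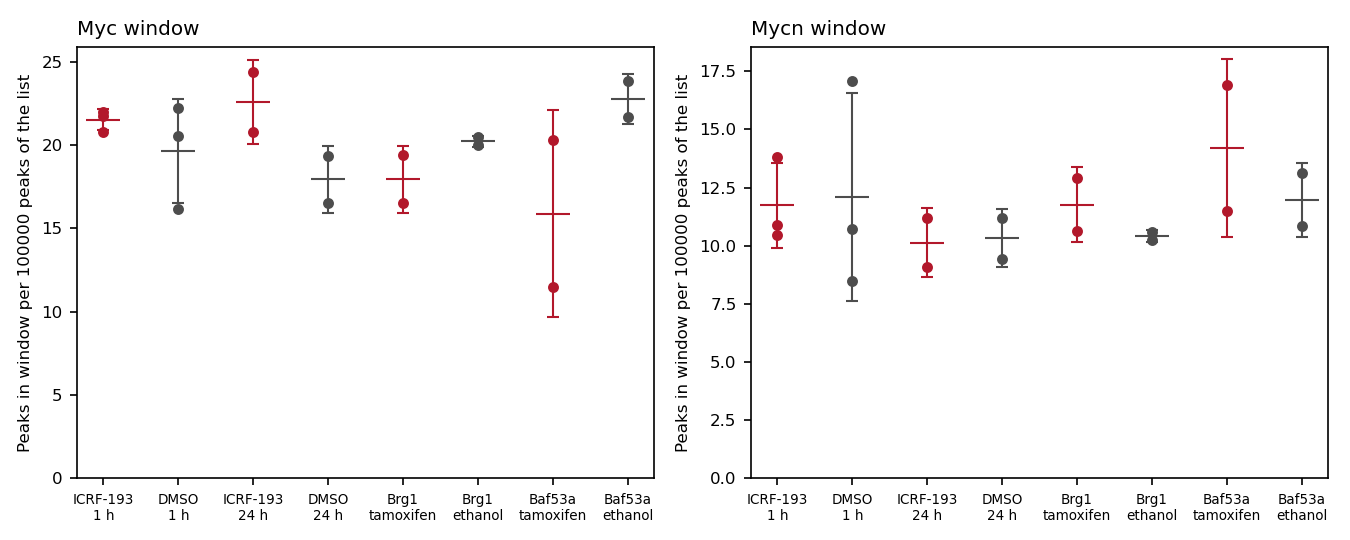
Peaks in the Myc window (left) and the Mycn window (right) per 100000 peaks of the same list, with each point a library, each horizontal line a group mean, each error bar the SD, and perturbed groups left of their controls. Baf53a tamoxifen replicate 2 is the lowest point for Myc, at 11.5, and DMSO 1 h replicate 2 the highest for Mycn, at 17.1.

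The share of bases under peaks in the Myc window differed in the same directions as the share of peaks, by -0.27 on the log2 scale in Brg1 cells, -0.44 in Baf53a cells, 0.35 after ICRF-193 for 24 h and 0.13 at 1 h. Because the contrasts go opposite ways at Myc, their mean cancels and decides nothing about any one of them. That mean was -0.06 for Myc peaks (exact two-sided permutation of labels within contrasts, 4320 arrangements, p = 0.770) and 0.11 for Mycn peaks (exact permutation p = 0.373). For bases it was -0.06 for Myc (exact permutation p = 0.631) and 0.06 for Mycn (exact permutation p = 0.450), and the Benjamini-Hochberg value over these 4 tests was 0.770 for each. Within 1 contrast of 2 against 2 libraries the exact test cannot go below 0.333, nor one of 3 against 3 below 0.1. At 1 h, bases under peaks in the Myc window reached that floor (exact permutation p = 0.1). Taken as numbered pairs, the ICRF-193 library was higher in 3 of 3 pairs, with p = 0.25 by exact sign flips, the smallest that 3 pairs allow. For Myc peaks, Mycn peaks and Mycn bases it was higher in 2 of 3 pairs each, with p = 0.75 by exact sign flips.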

How the data were processed

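The deposited files are 1 peak list per library, called separately for each. The submitters' processing notes list MACS2, edgeR 3.12.1 and Bowtie 0.12.9 beside mm9 and give none a role. How reads were shifted and which calling settings applied is not stated in these sources. Start and end positions are the authors' other values, used as deposited and printed counted from 1. The deposited score has no stated unit. Lists hold no read counts, so depth is unknown and no counting interval can be given.

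Peaks overlapping by 1 bp were merged. Regions are named where they lie within 1 kb of either gene, have peaks in 9 or more libraries, or were lost or gained. Members and lists were chosen with earlier results of these data known. limma 3.58.1 in R 4.3.3 (variance trend, 1 term per group over 18 libraries, Benjamini-Hochberg, called under 0.05) was fitted to log2((peaks + 0.5) per 100000 listed) in tiles with a mean of 3 or more peaks. Tested on simulated data, the fit returned the size of the changes put in but called few of them at this number of libraries, so a tile without a call may still have changed. The rank test was added after the data were seen and covers only regions detected in all libraries. Same-numbered libraries deviated together at 1 h, with correlations over 200 kb tiles of 0.163, 0.314 and 0.214, and were taken as pairs there by that check alone, since the labels name no shared batch. Other steps used Python 3.11.15. Alternatives covered scaling, equal list lengths, score, overlap, pseudocount, the replicate block and leaving out libraries. Gene positions were taken as approximate, and no mm9 annotation was used here.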

Additional observations from a re-analysis of the deposited data

How the results depend on the processing

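No tile density test of either window passed its threshold under any alternative run, so each sign there is uncertain. For Myc the Brg1 difference (log2) became 0.080 with equal numbers of peaks and 0.015 in the upper 50% of each list by score. For Mycn at 24 h of ICRF-193 it became 0.0098 with a pseudocount of 1, 0.46 with equal numbers and 0.16 in the upper 50%. For Mycn it became -0.044 at 1 h and -0.0072 in Brg1 cells under quantile normalization, and with equal numbers -0.21 in Brg1 cells and 0.41 for 24 h minus 1 h. In the upper 50% the Mycn difference was 0.82 at 1 h (SE 0.24, limma adjusted p = 0.983) and -0.66 for 24 h minus 1 h (SE 0.38, limma adjusted p = 0.999). Without scaling by the list, the Myc means over 4 contrasts were -0.41 for peaks (exact permutation p = 0.0588) and -0.45 for bases (exact permutation p = 0.063), and the Mycn means were -0.24 for peaks (exact permutation p = 0.105) and -0.33 for bases (exact permutation p = 0.198). Lost and gained regions, not always those of the full lists, numbered with equal list lengths 1 Myc loss and 3 Mycn losses at 24 h, and in Brg1 cells 1 Myc loss, 0 Myc gains and 0 Mycn losses. The upper 50% gave 1 Myc loss at 24 h, 2 Myc losses, 0 Myc gains and 0 Mycn losses in Brg1 cells, and 0 Myc gains in Baf53a cells. A cover of 25% gave 0 Mycn losses in Baf53a cells and 6 Myc losses in Brg1 cells, among them the region 58 kb upstream. Apart from fewer peaks or stricter overlap, the cause was not tested.

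Without each library in turn, the Mycn density difference ran from -0.14 to 0.12 at 24 h, -0.20 to 0.31 at 1 h, 0.04 to 0.36 in Brg1 cells, -0.044 to 0.49 in Baf53a cells, -0.32 to 0.19 for 24 h minus 1 h and -0.29 to 0.24 for Brg1 minus Baf53a. For Myc it ran from 0.22 to 0.45 at 24 h, 0.01 to 0.25 at 1 h, -0.28 to -0.02 in Brg1 cells and -0.95 to -0.16 in Baf53a cells. The means over 4 contrasts ran from -0.15 to 0.043 for Myc peaks, -0.12 to 0.0026 for Myc bases, 0.04 to 0.18 for Mycn peaks and 0.02 to 0.10 for Mycn bases. Fewer libraries make lost and gained patterns easier to meet. Losses at Myc then ran from 3 to 7 at 24 h, 0 to 1 at 1 h, 5 to 12 in Brg1 cells and 3 to 9 in Baf53a cells, and at Mycn from 1 to 3, 0 to 2, 2 to 3 and 1 to 3. Gains at Myc ran from 2 to 8 at 24 h and 1 to 4 in Brg1 cells, and at Mycn from 0 to 1 at 24 h, 0 to 1 in Brg1 cells and 0 to 5 in Baf53a cells. The rank difference of the region 58 kb upstream of Myc ran from -80.7 to -74.3 points in Brg1 cells, -69.5 to -62.7 in Baf53a cells, -45.5 to -30.8 at 24 h and -7.12 to 13.3 at 1 h.

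At 1 h the replicate numbers were taken as pairs from the correlations alone. The block there gave a Myc density difference of 0.15 (limma adjusted p = 0.975) and a Mycn one of 0.02 (limma adjusted p = 0.996) and changed no call. In the other contrasts the correlations over 200 kb tiles were 0.0081 to 0.0723, and those numbers were not taken as pairs. There the replicate block took the Brg1 tiles called lower and higher to 225 and 54 of 8557, against 126 and 19 without it, and over 110 kb tiles to 133 and 31, against 76 and 7. Neither window was called, and the Brg1 rank call remained (-77.5 points, limma adjusted p = 0.0053).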
